A study of Homo sapiens with 15 samples.

Results

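The genes described here are 30 genes of cholesterol synthesis, sterol transport and the SREBP system, listed by symbol and matched through GENCODE v29 to 30 of the 58735 Ensembl identifiers with a deposited value. They comprise 18 synthesis enzymes, 5 genes for the SREBP transcription factors and their sensors, 4 genes of fatty acid synthesis and 3 of sterol transport. RNA was sequenced from HEK293T, a human embryonic kidney cell line grown in DMEM with serum, in 5 groups of 3 culture wells. The groups were Non-target, labelled WT, and the knockout clones C9orf89-CKO, RHBDD2-CKO, MLPH-CKO and MAGI2-CKO, each made with a CRISPRv2 vector against the named gene. The paper describes its Non-target controls as carrying lentiCRISPRv2 with a non-targeted guide RNA, so they were not untreated cells. All 5, Non-target included, were lines established by limiting dilution, so each group is 1 clone. The 3 wells of a group therefore show the spread of culture, extraction and library preparation within that clone, and a difference between clones cannot be told apart from a difference that follows from the knockout. All 4 comparisons with Non-target also share its 3 wells.

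Cells make cholesterol from acetyl-CoA through mevalonate, farnesyl diphosphate, squalene and lanosterol. When sterols in the endoplasmic reticulum are low, SCAP carries the SREBP precursors to the Golgi, where proteases release a fragment that enters the nucleus and switches on these enzymes. When sterols are plentiful, the INSIG proteins hold SCAP and its cargo back. SREBP-2, the product of SREBF2, acts mainly on cholesterol genes, and the products of SREBF1 act more on fatty acid genes.

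The deposited values were FPKM, that is, fragments scaled by exon length and library depth, so levels of different genes can be compared per length. The libraries held 15517856 to 19489918 fragments on genes. Of the 30 genes, 29 had at least 0.5 FPKM in at least 3 libraries and were tested with the other genes that passed, 16175 in all. ABCA1, which exports cholesterol from cells, was the exception, with 0.0954 to 0.285 FPKM. Fold changes are differences of log2(FPKM + 0.1), and a gene was called higher or lower when its limma p-value, adjusted by the Benjamini-Hochberg method over all tested genes of the contrast, was below 0.05.

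The targeted genes were read first. CARD19, the current symbol of C9orf89, had 5.70, 7.71 and 6.27 FPKM in the Non-target wells and 4.34, 4.27 and 4.34 FPKM in C9orf89-CKO, a fall of 0.58 on the log2 scale (adjusted p = 0.000977, limma). RHBDD2 fell by 1.42 on the log2 scale in RHBDD2-CKO (adjusted p = 7.56e-06, limma), from 27.4 to 38.1 FPKM down to 11.2 to 13.5 FPKM. It also fell by 1.27 on the log2 scale in MAGI2-CKO (adjusted p = 1.55e-05, limma), and CARD19 fell by 0.44 on the log2 scale in RHBDD2-CKO (adjusted p = 0.00489, limma), so neither fall was confined to the clone named for the gene. MAGI2 lay at 0.0523 to 0.123 FPKM in all groups and MLPH was listed at 0 everywhere, so their RNA checks neither label.

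Of 8 markers of HEK293T cells, all were above 0 in at least 1 library, and their summed level was 75.8 to 190.0 FPKM, with VIM the most abundant gene at up to 87.9 FPKM. NEFM, a neurofilament gene, had 21.4 to 38.4 FPKM in Non-target, 0 to 0.0705 FPKM in MAGI2-CKO and 0.957 to 1.89 FPKM in RHBDD2-CKO. NEFL, another neurofilament gene, had 16.8 to 20.5 FPKM in Non-target and 0.903 to 1.14 FPKM in RHBDD2-CKO. Of the 8, 2 were called lower in C9orf89-CKO (among them KRT8, −0.93 on the log2 scale), 2 in MAGI2-CKO (NEFM and KRT8, the latter −0.45) and 4 in RHBDD2-CKO (among them NEFM, NEFL and EYA1, the last −0.54). VIM and NEFL were called higher in C9orf89-CKO (0.60 and 0.36) and MAGI2-CKO (0.61 and 0.40), and in MLPH-CKO 5 were called higher, VIM (0.86), NEFL (0.89), KRT8 (1.57), KRT18 (0.42) and PAX2 (0.70). Of 8 markers of myeloid cells, which the study co-cultured with HEK293T elsewhere, the summed level was 0.179 to 0.629 FPKM, SPI1 was the most abundant at up to 0.398 FPKM and MPO was at 0 in every library. Their part in the results below was not tested.

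Most of the cholesterol enzymes had lower RNA in 3 of the 4 knockout clones than in Non-target. Of the 18 enzymes, 12 fell in C9orf89-CKO, as did 14 in MLPH-CKO and 17 in MAGI2-CKO, and none rose. Their median log2 fold changes were −0.47, −0.69 and −0.94 in that order. Where values of several clones are listed from here on, they follow the order C9orf89-CKO, MAGI2-CKO, then MLPH-CKO and RHBDD2-CKO. In RHBDD2-CKO, 7 enzymes fell, TM7SF2 rose and the median was −0.16, and this split moved with the scaling, as given below. Over all 29 tested genes of the set, 16 fell and 2 rose in C9orf89-CKO, where 13.1% of all tested genes were called lower and 12.9% higher. In MAGI2-CKO, 21 fell and 1 rose, beside 19.1% and 17% of all tested genes. In MLPH-CKO, 17 fell and 1 rose, beside 15.5% and 14.5%. In RHBDD2-CKO, 9 fell and 4 rose, beside 16.7% and 17.4%, and without Non-target well 2 the split was 4 lower and 4 higher. The median over the 29 genes was −0.37, −0.65, −0.49 and −0.12 in the same order of clones, against a median over all tested genes between −0.006 and 0.

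**Figure D1:**
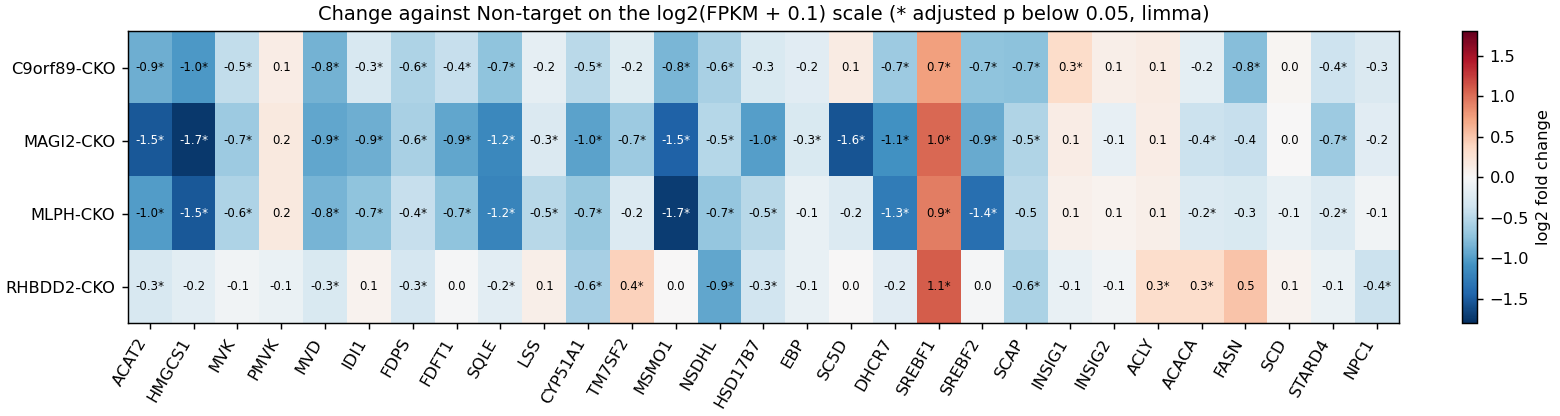
Log2 fold change against Non-target (colour and number, on the log2(FPKM + 0.1) scale) for the 29 tested genes in columns and the 4 knockout clones in rows, with an asterisk where the limma adjusted p was below 0.05. The left block of 18 enzymes is mostly blue in the upper 3 rows, pale in RHBDD2-CKO, and SREBF1 is red in all 4 rows.

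Summed over the 18 enzymes, the Non-target wells held 499.7, 527.0 and 503.0 FPKM and the C9orf89-CKO wells 351.2, 371.2 and 366.9 FPKM. The sums were 291.7, 285.7 and 297.0 FPKM in MAGI2-CKO and 332.2, 299.9 and 294.4 FPKM in MLPH-CKO. None of these 9 wells reached the lowest Non-target well. RHBDD2-CKO held 467.2, 443.9 and 442.2 FPKM, below Non-target but above every well of the other clones. On the TPM scale, where the FPKM of every library are rescaled to the same sum, RHBDD2-CKO had 1780, 1800 and 1810 and overlapped Non-target with 1750, 1880 and 1850. MLPH-CKO (1070 to 1130), MAGI2-CKO (1000 to 1050) and C9orf89-CKO (1260 to 1420) stayed below both. The mean log2 ratio of the 18 enzymes to Non-target was −0.17 ± 0.06 in RHBDD2-CKO, −0.46 ± 0.02 in C9orf89-CKO, −0.71 ± 0.08 in MLPH-CKO and −0.89 ± 0.02 in MAGI2-CKO (SD over 3 wells).

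**Figure D2:**
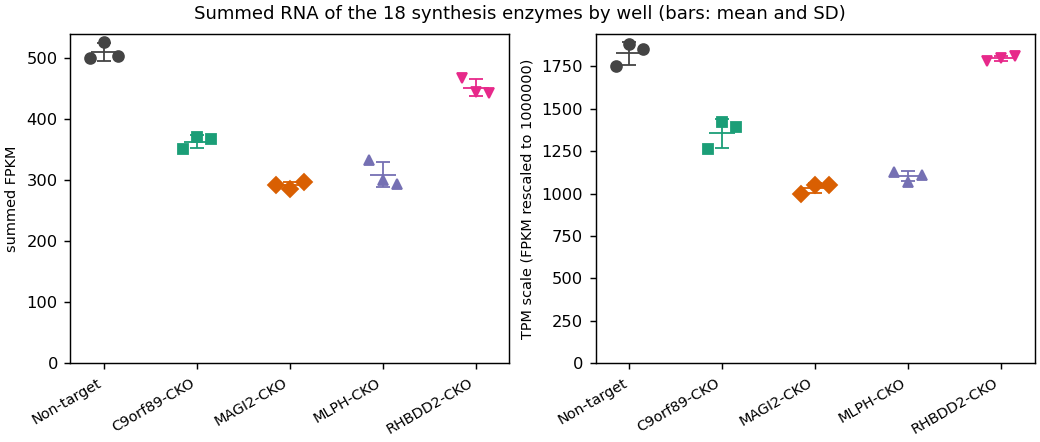
Summed RNA of the 18 synthesis enzymes in each of the 15 wells, as FPKM on the left and on the TPM scale on the right, with points for wells and bars for mean and SD. RHBDD2-CKO lies at 442.2 to 467.2 FPKM, below Non-target on the left, and among the Non-target wells at 1780 to 1810 on the right.

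The promoters of 5 of these genes are shown as examples of windows with and without the letters that SREBP and its partner NF-Y are known to read. They were chosen with the values known. Each is the 250 bases before the start of the gene in RefSeq (GRCh38.p14), 5′ to 3′ on the gene's own strand. HMGCS1 has 2 such windows, of which the 1 with more NF-Y boxes is shown. Capitals mark the NF-Y box CCAAT, or ATTGG where it lies on the other strand, and the sterol regulatory element TCACNCCAC.
SREBF2, chr22:41832855-41833104, plus strand: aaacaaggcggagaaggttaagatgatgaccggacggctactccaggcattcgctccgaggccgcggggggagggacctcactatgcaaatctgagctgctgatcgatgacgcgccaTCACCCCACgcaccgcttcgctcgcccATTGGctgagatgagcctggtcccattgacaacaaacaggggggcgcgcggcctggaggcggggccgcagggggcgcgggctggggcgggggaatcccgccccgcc
HMGCS1, chr5:43313413-43313662, minus strand: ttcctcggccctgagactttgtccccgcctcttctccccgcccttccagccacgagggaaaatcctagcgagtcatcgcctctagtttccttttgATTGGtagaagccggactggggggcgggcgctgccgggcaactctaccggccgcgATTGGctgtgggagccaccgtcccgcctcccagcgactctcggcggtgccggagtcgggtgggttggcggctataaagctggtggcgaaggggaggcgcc
MSMO1, chr4:165327419-165327668, plus strand: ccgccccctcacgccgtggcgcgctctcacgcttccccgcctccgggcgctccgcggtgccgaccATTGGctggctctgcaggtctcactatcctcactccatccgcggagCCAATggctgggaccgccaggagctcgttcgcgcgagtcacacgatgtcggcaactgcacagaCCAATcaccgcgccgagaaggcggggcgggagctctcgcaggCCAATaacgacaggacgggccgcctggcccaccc
MVD, chr16:88663092-88663341, minus strand: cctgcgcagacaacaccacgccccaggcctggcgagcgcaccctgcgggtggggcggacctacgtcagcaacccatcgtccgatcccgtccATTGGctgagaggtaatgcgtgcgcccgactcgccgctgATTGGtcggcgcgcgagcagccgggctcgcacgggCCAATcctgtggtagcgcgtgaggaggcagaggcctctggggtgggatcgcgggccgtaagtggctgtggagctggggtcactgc
PMVK, chr1:154936720-154936969, minus strand: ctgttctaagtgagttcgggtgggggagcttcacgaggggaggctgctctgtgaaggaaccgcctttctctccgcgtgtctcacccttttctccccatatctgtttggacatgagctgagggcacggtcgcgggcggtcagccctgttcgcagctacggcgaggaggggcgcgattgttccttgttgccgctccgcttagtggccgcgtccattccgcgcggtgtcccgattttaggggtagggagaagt

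In SREBF2 the sterol element TCACCCCAC stood on the gene's strand, 133 to 125 bases before the start, with 1 NF-Y box 106 to 102 bases before it. MSMO1 had 4 NF-Y boxes, MVD 3 and HMGCS1 2, and PMVK had none in these 250 bases. The window of HMGCS1 that is not shown held none either. Windows of 300 bases, 250 before the start and 50 after it, were matched by symbol for 26 of the 30 genes and searched on both strands for 3 motifs, each counted on its own, so that positions may overlap. CCAAT was in 19 of the 26, and in 13 of the 15 enzymes matched, against 39.7% of 27305 genes in the table with it in any window. The GC box GGGCGG was in 25 of the 26, against 48.3% of genes. TCACNCCAC was in 1 of the 26, SREBF2, and in none of the 15 enzymes, against 1.39% of genes. The 27305 genes were not limited to those tested here, so these shares are no matched background. CYP51A1, called lower in all 4 clones, had no CCAAT in its window, while EBP, called in MAGI2-CKO alone, had 3. These are counts of letters in short windows, and say nothing of whether a factor binds there. ACAT2, FDFT1, SQLE and FASN were not among the matched genes.

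The first steps lead from acetyl-CoA to farnesyl diphosphate. ACAT2 and HMGCS1, which condense acetyl-CoA units, had the most negative changes among the 7 genes of this arm in the first 3 clones, and FDPS (−0.30) in RHBDD2-CKO. ACAT2 had 32.5, 33.6 and 29.6 in Non-target, 18.3, 16.96 and 16.7 in C9orf89-CKO, 11.8, 10.8 and 10.3 in MAGI2-CKO, 18.1, 14.7 and 14.7 in MLPH-CKO and 29.9, 23.01 and 25.7 in RHBDD2-CKO, in FPKM. Every well of the first 3 knockout clones lay below every Non-target well, and the RHBDD2-CKO wells overlapped them. The log2 fold changes were −0.88 ± 0.10 (SE), −1.53 ± 0.10 and −1.01 ± 0.10 (adjusted p = 5.97e-05, 3.11e-07 and 1.5e-05, limma), that is, means of 54.3%, 34.4% and 49.7% of Non-target. In RHBDD2-CKO the change was −0.29 with an adjusted p of 0.0484 (limma), a call that was lost in 16 of 26 other settings. Part of ACAT2's exon sequence (9.2%) lies opposite TCP1, which is transcribed from the other strand at a mean of 116 FPKM, and whether the counting used strand is not given in the sources used here.

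HMGCS1, the cytosolic HMG-CoA synthase, had 35, 28.3 and 28.8 in Non-target, 15.5, 14.7 and 14.6 in C9orf89-CKO, 10.6, 8.79 and 8.15 in MAGI2-CKO, 11.8, 10.5 and 9.27 in MLPH-CKO and 31.8, 23.9 and 25.3 in RHBDD2-CKO, in FPKM. The first 3 clones were separated from Non-target, RHBDD2-CKO was not, and well 1 was the highest in all 5 groups. HMGCS1 fell by 1.03 ± 0.13 (SE), 1.73 ± 0.13 and 1.53 ± 0.13 on the log2 scale in the first 3 clones (adjusted p = 9.17e-05, 6.24e-07 and 2.79e-06, limma), and the value in RHBDD2-CKO was −0.19 (adjusted p = 0.288, limma). It was the largest fall of the 29 genes in C9orf89-CKO and in MAGI2-CKO.

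MVD, the mevalonate diphosphate decarboxylase, had 15.9, 19.4 and 17.8 in Non-target, 10.2, 9.43 and 9.59 in C9orf89-CKO, 8.55, 8.85 and 10.04 in MAGI2-CKO, 10.5, 9.76 and 9.44 in MLPH-CKO and 13.7, 14.6 and 15.3 in RHBDD2-CKO, in FPKM. All 12 knockout wells lay below the Non-target wells. MVD fell by 0.85, 0.94 and 0.83 on the log2 scale (SE 0.08 each, adjusted p from 2.85e-06 to 1.2e-05, limma) and by 0.28 in RHBDD2-CKO (adjusted p = 0.0203, limma), where the value was −0.13 on the TPM scale (adjusted p = 0.316, limma). FDPS, the farnesyl diphosphate synthase, had 32.1, 32.9 and 28.6 in Non-target, 21.6, 21.1 and 21.3 in C9orf89-CKO, 20.9, 20.7 and 20.2 in MAGI2-CKO, 26.7, 22.03 and 21.2 in MLPH-CKO and 26.8, 24.5 and 24.6 in RHBDD2-CKO, in FPKM. It too lay below Non-target in all 12 wells, with log2 fold changes of −0.55, −0.59, −0.42 and −0.30, the last of which was no longer called on the TPM scale (adjusted p = 0.0834, limma). An antisense transcript, RUSC1-AS1, covers 18.6% of its exon sequence at a mean of 1.13 FPKM.

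IDI1, which isomerises isopentenyl diphosphate, had 28.6, 28.5 and 28.7 in Non-target, 20.6, 25.8 and 23.9 in C9orf89-CKO, 15.98, 15.8 and 14.8 in MAGI2-CKO, 17.4, 17.3 and 17.03 in MLPH-CKO and 32.1, 29.1 and 29.1 in RHBDD2-CKO, in FPKM. Its 9 wells in the first 3 clones were below Non-target and its RHBDD2-CKO wells were above, by 0.07 on the log2 scale, which did not pass the test (adjusted p = 0.477, limma). The falls were 0.29, 0.88 and 0.73 on the log2 scale, while the 100 nearest tested genes had median changes of 0.39, 0.29 and 0.35 in the same clones. MVK, the mevalonate kinase, had 5.41, 7.31 and 7.41 in Non-target, 4.98, 4.79 and 4.79 in C9orf89-CKO, 4.18, 4.01 and 4.43 in MAGI2-CKO, 4.25, 4.27 and 4.97 in MLPH-CKO and 6.16, 6.32 and 6.49 in RHBDD2-CKO, in FPKM. The first 3 clones were below every Non-target well, with log2 fold changes of −0.45, −0.65 and −0.56 (adjusted p = 0.00757, 0.000386 and 0.00158, limma). PMVK, the kinase of the next step, was called in no clone, with log2 fold changes of 0.13, 0.18, 0.17 and −0.12 and overlapping wells from 22.9 to 46.0 FPKM.

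**Figure D3:**
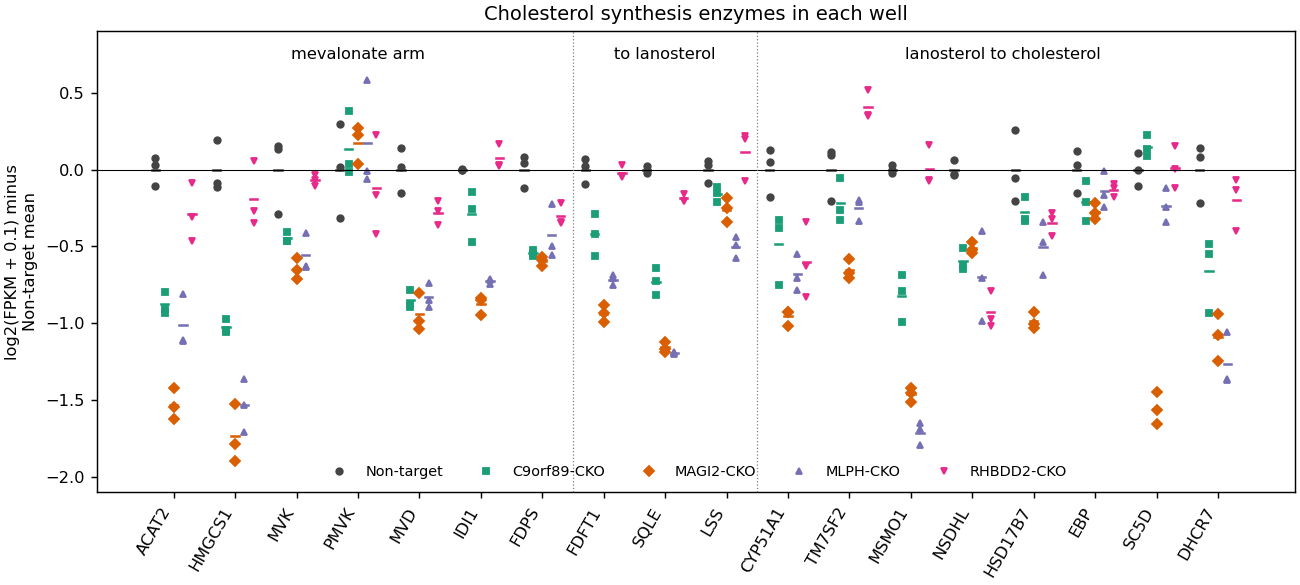
Log2(FPKM + 0.1) minus the Non-target mean (vertical axis) for the 18 synthesis enzymes in pathway order, with 1 point per well, short lines for group means and dotted lines between the 3 stretches of the pathway. For HMGCS1, SQLE and MSMO1 the MAGI2-CKO and MLPH-CKO wells lie lowest, C9orf89-CKO lies between, and RHBDD2-CKO lies near 0. SC5D is called in MAGI2-CKO alone, and NSDHL has its lowest mean in RHBDD2-CKO, where its wells overlap those of MLPH-CKO.

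The next 3 enzymes make squalene and close it to lanosterol. SQLE, the squalene epoxidase and a controlled step of the pathway, had 56.8, 57.7 and 56.03 in Non-target, 32.2, 34.3 and 36.4 in C9orf89-CKO, 26.1, 24.9 and 25.2 in MAGI2-CKO, 24.7, 24.9 and 24.8 in MLPH-CKO and 50.9, 49.4 and 49.4 in RHBDD2-CKO, in FPKM. The wells of a group were close together and all 12 knockout wells lay below Non-target. SQLE fell by 0.73, 1.16 and 1.19 on the log2 scale (SE 0.05 each, adjusted p = 4.24e-07, 5.79e-09 and 5.75e-09, limma). The change of −0.19 in RHBDD2-CKO (adjusted p = 0.0102, limma) was −0.06 after quantile normalization and −0.04 on the TPM scale, and was called in neither.

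FDFT1, the squalene synthase, had 35.5, 39.7 and 38.5 in Non-target, 25.7, 31.03 and 28.3 in C9orf89-CKO, 18.97, 19.8 and 20.5 in MAGI2-CKO, 23.5, 22.4 and 23.2 in MLPH-CKO and 36.8, 36.6 and 38.6 in RHBDD2-CKO, in FPKM. The 9 wells of the first 3 clones were below Non-target and the RHBDD2-CKO wells were among them. The log2 fold changes were −0.42, −0.94, −0.72 and −0.02, of which the first 3 were called (adjusted p = 0.000643, 5.29e-07 and 7.89e-06, limma). LSS, the lanosterol synthase, was called in MAGI2-CKO (−0.26) and MLPH-CKO (−0.50) and not in C9orf89-CKO (−0.16) or RHBDD2-CKO (0.11). The MAGI2-CKO call was lost in 5 of 26 other settings, among them without MAGI2-CKO well 1 or Non-target well 2 or 3 (adjusted p from 0.0595 to 0.0757, limma).

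The last 8 enzymes turn lanosterol into cholesterol. MSMO1, which oxidises the methyl groups of the sterol, had 28.1, 27.7 and 28.7 in Non-target, 16.3, 14.1 and 17.5 in C9orf89-CKO, 10.5, 10.2 and 9.81 in MAGI2-CKO, 8.65, 8.90 and 8.05 in MLPH-CKO and 31.5, 26.7 and 26.9 in RHBDD2-CKO, in FPKM. The first 3 clones stood clear of Non-target and RHBDD2-CKO overlapped it. MSMO1 fell by 0.82, 1.46 and 1.71 on the log2 scale (SE 0.08 each, adjusted p = 1.41e-05, 5.8e-08 and 1.77e-08, limma), to 56.7%, 36.1% and 30.3% of the Non-target mean, and its value in RHBDD2-CKO was 0.01. In MLPH-CKO the 100 nearest genes had a median of −0.38, and MSMO1 was 1.33 below that median on the log2 scale.

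DHCR7, which reduces dehydrocholesterol to cholesterol, had 55.1, 70.7 and 67.99 in Non-target, 33.5, 45.9 and 43.8 in C9orf89-CKO, 26.98, 30.4 and 33.4 in MAGI2-CKO, 24.96, 30.8 and 24.9 in MLPH-CKO and 48.6, 61.2 and 58.5 in RHBDD2-CKO, in FPKM. Again the first 3 clones lay below every Non-target well and RHBDD2-CKO overlapped, with log2 fold changes of −0.66, −1.09, −1.26 and −0.20 (adjusted p = 0.00472, 7.43e-05, 3.39e-05 and 0.31, limma). CYP51A1, the lanosterol demethylase, had 6.57, 5.30 and 6.23 in Non-target, 4.77, 3.53 and 4.59 in C9orf89-CKO, 3.12, 2.92 and 3.12 in MAGI2-CKO, 4.08, 3.45 and 3.65 in MLPH-CKO and 4.72, 3.34 and 3.86 in RHBDD2-CKO, in FPKM. All 12 knockout wells lay below Non-target, and the log2 fold changes were −0.49, −0.96, −0.68 and −0.60 (adjusted p = 0.0186, 0.000138, 0.00232 and 0.00462, limma). In MAGI2-CKO the 100 genes around it had a median of −0.52, so that CYP51A1 was 0.43 below its surroundings. A readthrough gene annotated over 79.4% of its exon sequence was listed at 0, so reads shared between both could not be divided here.

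NSDHL, a sterol dehydrogenase, went another way across the clones and had its lowest mean in RHBDD2-CKO. Its wells there overlapped those of MLPH-CKO, and none of the 18 enzymes was called lower in the direct contrast of these clones. It had 45.2, 48.2 and 45.05 in Non-target, 29.4, 32.3 and 30.03 in C9orf89-CKO, 32.1, 31.6 and 33.3 in MAGI2-CKO, 34.9, 28.3 and 23.2 in MLPH-CKO and 26.6, 22.8 and 23.5 in RHBDD2-CKO, in FPKM. All 12 knockout wells were below Non-target. The log2 fold changes were −0.59, −0.51, −0.70 and −0.93 (SE 0.11 each, adjusted p = 0.00208, 0.00341, 0.000558 and 5.32e-05, limma). In RHBDD2-CKO its 100 neighbours had a median of −0.50, against 0.04 to 0.06 in the other clones, and their part in the result was not tested. HSD17B7, the ketoreductase, had 5.29, 5.89 and 7.33 in Non-target, 4.83, 5.40 and 4.88 in C9orf89-CKO, 3.17, 2.95 and 3 in MAGI2-CKO, 4.80, 4.38 and 3.76 in MLPH-CKO and 5, 4.88 and 4.51 in RHBDD2-CKO, in FPKM. MAGI2-CKO held the lowest wells, and the log2 fold changes were −0.28, −0.99, −0.50 and −0.35, of which the last 3 were called (adjusted p = 2.55e-05, 0.00498 and 0.0328, limma). A near copy, HSD17B7P2, was listed at a mean of 1.05 FPKM, so its share of the reads is uncertain.

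SC5D, the sterol desaturase, had 12.9, 11.9 and 11.1 in Non-target, 12.7, 13.1 and 14 in C9orf89-CKO, 4.31, 3.96 and 3.73 in MAGI2-CKO, 10.97, 10.1 and 9.39 in MLPH-CKO and 13.3, 10.98 and 11.9 in RHBDD2-CKO, in FPKM. MAGI2-CKO stood apart from all other groups. SC5D fell there by 1.56 ± 0.09 (SE) on the log2 scale (adjusted p = 6.1e-08, limma) and by 1.71 against C9orf89-CKO (adjusted p = 5.72e-08, limma). In the other clones its values were 0.15, −0.24 and 0.01, none of them called. SC5D lies on chromosome 11 (GRCh38, chr11:121292453-121308694) in a stretch that was low in the same clone: of 101 tested genes within 5 megabases, 52 were called lower and 1 higher in MAGI2-CKO, with a median of −0.44. SC5D was 1.12 below the median of its 100 neighbours, and 3 of those 100 were lower than it.

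TM7SF2, a sterol reductase, and EBP, a sterol isomerase, complete the pathway. TM7SF2 had 9.91, 12.4 and 12.2 in Non-target, 9.51, 9.11 and 11.02 in C9orf89-CKO, 6.98, 7.61 and 7.14 in MAGI2-CKO, 9.06, 9.87 and 9.97 in MLPH-CKO and 14.6, 16.4 and 14.7 in RHBDD2-CKO, in FPKM, and is given by well because it was the enzyme that rose, a choice made after its values were seen. It was above every Non-target well in RHBDD2-CKO (log2 fold change 0.41, adjusted p = 0.00538, limma) and below every one in MAGI2-CKO (−0.65, adjusted p = 0.000161, limma). The direct contrast of these clones was 1.06 (adjusted p = 2.14e-06, limma). In the fit used above, EBP was called in MAGI2-CKO alone, with −0.27 (adjusted p = 0.0218, limma). Its values in the others were −0.21, −0.14 and −0.13. The call was lost without MAGI2-CKO well 1 or 2 or Non-target well 2 or 3 (adjusted p from 0.0537 to 0.0928, limma). With a block for replicate number, 16 of the 18 enzymes were called lower in MLPH-CKO, in place of 14. The share of all tested genes called with the block is not given here.

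The genes for the 2 SREBP precursors moved in opposite directions in 3 of the 4 clones. SREBF2 had 40.1, 48.1 and 48.04 in Non-target, 23.9, 29.2 and 28.7 in C9orf89-CKO, 21.4, 24.8 and 26.1 in MAGI2-CKO, 15.9, 19.7 and 17.5 in MLPH-CKO and 40.8, 47.9 and 45.6 in RHBDD2-CKO, in FPKM. The 9 wells of MAGI2-CKO, C9orf89-CKO and MLPH-CKO lay below every Non-target well, while RHBDD2-CKO overlapped it. SREBF2 fell by 0.73, 0.91 and 1.36 on the log2 scale (SE 0.11 each, adjusted p = 0.000444, 4.71e-05 and 2.72e-06, limma), to 60.1%, 53.1% and 38.9% of the Non-target mean, and the value in RHBDD2-CKO was −0.02 (adjusted p = 0.918, limma). The medians of its 100 neighbours were −0.18, −0.12, −0.24 and 0.05, and over the 20 nearest they were −0.17, −0.32, −0.30 and −0.06.

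SREBF1 had 8.18, 11.3 and 10.4 in Non-target, 15.3, 16.6 and 17.97 in C9orf89-CKO, 17.1, 22.3 and 22.1 in MAGI2-CKO, 14.8, 20.1 and 21.9 in MLPH-CKO and 17.1, 23.5 and 23.4 in RHBDD2-CKO, in FPKM. All 12 knockout wells were above all Non-target wells, with log2 fold changes of 0.74, 1.04, 0.92 and 1.09 (SE 0.17 each, adjusted p = 0.00696, 0.000478, 0.00159 and 0.000426, limma). Part of SREBF1's exon sequence (6.9%) lies opposite RAI1, listed at a mean of 13.8 FPKM. RAI1 had log2 fold changes of 1.388, 1.493, 1.395 and 1.347, and its share of the SREBF1 reads was not tested. The ratio of SREBF2 to SREBF1 FPKM was 4.60 ± 0.32 (SD, n = 3) in Non-target, 2.13 ± 0.23 in RHBDD2-CKO, 0.949 ± 0.14 in MLPH-CKO, 1.64 ± 0.11 in C9orf89-CKO and 1.18 ± 0.07 in MAGI2-CKO. No clone reached the ratio of Non-target.

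The genes beside SREBF1 rose with it. SREBF1 lies on chromosome 17 (GRCh38, chr17:17810399-17837002), and 37 other genes within 1 megabase were tested. Of these, 29, 31, 30 and 30 were called higher, and 1 was called lower, in RHBDD2-CKO. Their median log2 fold changes were 1.12, 1.14, 1.15 and 1.14, at or above the change of SREBF1 itself. Within 5 megabases, the medians of 94 genes were 1.00, 1.06, 1.04 and 0.59, and those of the 100 nearest genes were 0.98, 1.01, 0.99 and 0.54, lowest in RHBDD2-CKO both times. Within 15 megabases, 335 genes were tested and the medians were 0.10, 0.22, 0.16 and 0.02. Because the 4 comparisons share the Non-target wells, a stretch that was low in Non-target and one that was high in every knockout clone cannot be told apart, and neither can be told from the FPKM of RNA alone.

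**Figure D4:**
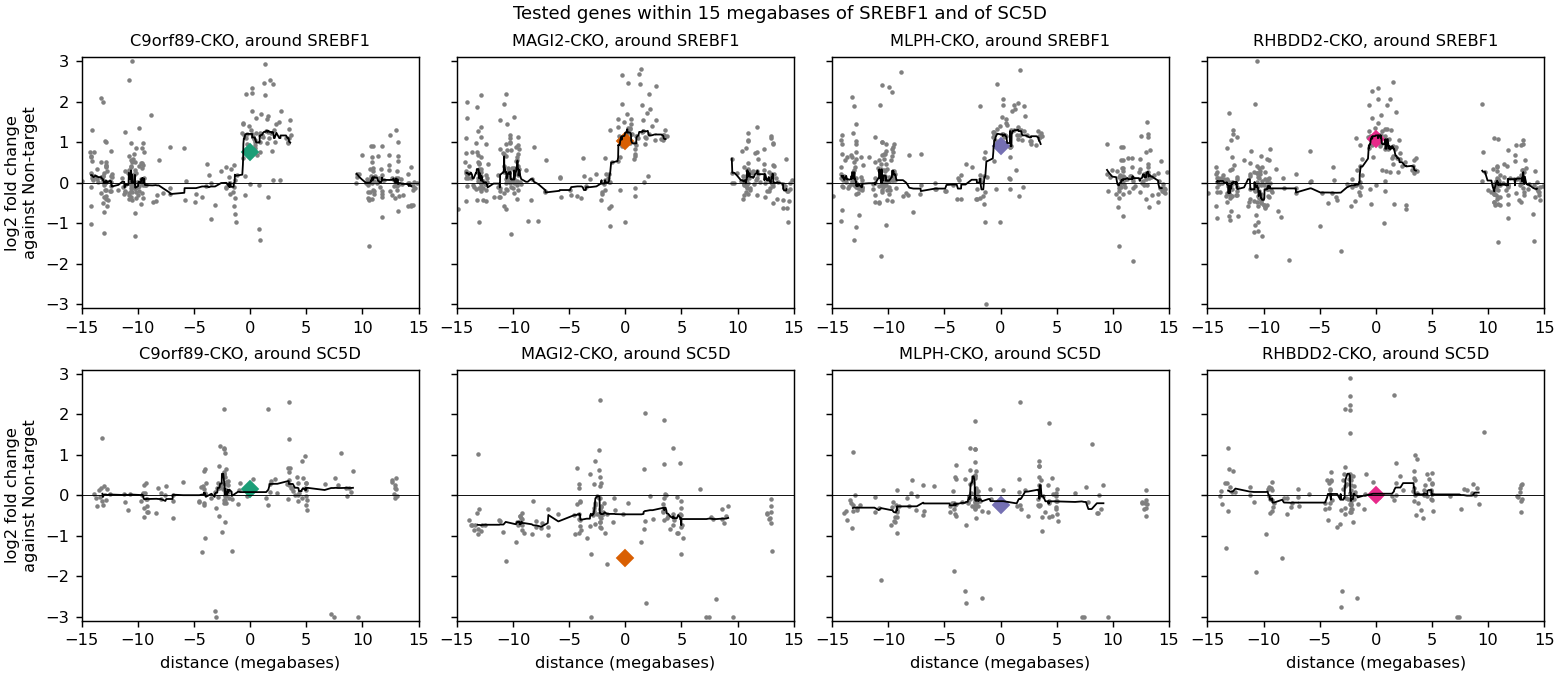
Log2 fold change against Non-target (vertical axis, values beyond 3 drawn at the edge) of each tested gene within 15 megabases of SREBF1 (top) and SC5D (bottom), by distance in megabases, in the 4 clones. Coloured diamonds are the named gene, the black line is the running median of 15 genes, broken at gaps over 2 megabases. Genes within 1 megabase of SREBF1 have medians of 1.12 to 1.15 in all 4 clones, which fall off with distance and sooner in RHBDD2-CKO, and around SC5D the line is below 0 across the window in MAGI2-CKO.

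Of the 18 enzymes, 1, 7, 4 and 2 had neighbours with a median beyond 0.2 in either direction, the 7 being in MAGI2-CKO. After the median of its 100 neighbours was subtracted from each enzyme, the median of the 18 was −0.55, −0.86, −0.69 and −0.16 (−0.54, −0.90, −0.75 and −0.19 with the 20 nearest genes), beside −0.47, −0.94, −0.69 and −0.16 before. The part of such stretches in the falls was not tested.

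SCAP, the escort of the SREBP precursors, had 28.5, 39.97 and 39.2 in Non-target, 17.7, 22.97 and 23.5 in C9orf89-CKO, 20.2, 25.6 and 28.3 in MAGI2-CKO, 20.5, 26.4 and 29.7 in MLPH-CKO and 20.2, 26.6 and 25.4 in RHBDD2-CKO, in FPKM. C9orf89-CKO, MAGI2-CKO and RHBDD2-CKO lay below every Non-target well, and MLPH-CKO overlapped by 1 well. The log2 fold changes were −0.74, −0.54, −0.49 and −0.57, with SE 0.18 and adjusted p of 0.00982, 0.0362, 0.0609 and 0.0295 (limma). The calls in MAGI2-CKO and RHBDD2-CKO were each lost in 8 of 26 other settings, among them without Non-target well 2 or 3 (adjusted p from 0.1 to 0.123, limma). Neighbours of SCAP had medians of −0.33, −0.25, −0.23 and −0.17.

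SCAP, SREBF1, SREBF2 and FASN were lowest in well 1 of all 5 groups, a shared difference between wells whose part in these results was not tested. Without the 5 libraries numbered 1, an alternative chosen after seeing the data, SREBF1 had log2 fold changes of 1.11 in RHBDD2-CKO (adjusted p = 2.56e-05, limma) and SCAP −0.61 (adjusted p = 0.000479, limma). INSIG1, which retains SCAP, had 59.3, 66.4 and 67.8 in Non-target, 71.5, 84.4 and 88.5 in C9orf89-CKO, 65.2, 73.7 and 73.8 in MAGI2-CKO, 63.97, 70.4 and 71.1 in MLPH-CKO and 58.8, 56.9 and 59.5 in RHBDD2-CKO, in FPKM. It was above every Non-target well in C9orf89-CKO, with a log2 fold change of 0.33 (adjusted p = 0.0119, limma). In the other clones it had 0.14, 0.09 and −0.14 and was not called. INSIG2, the second retention protein, had 4.57, 4.07 and 4.42 in Non-target, 4.32, 4.46 and 5.26 in C9orf89-CKO, 4.37, 3.72 and 3.67 in MAGI2-CKO, 4.81, 4.33 and 4.45 in MLPH-CKO and 4.25, 4.04 and 4.23 in RHBDD2-CKO, in FPKM. Its groups overlapped, and its log2 fold changes of 0.10, −0.15, 0.06 and −0.06 were not called.

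**Figure D5:**
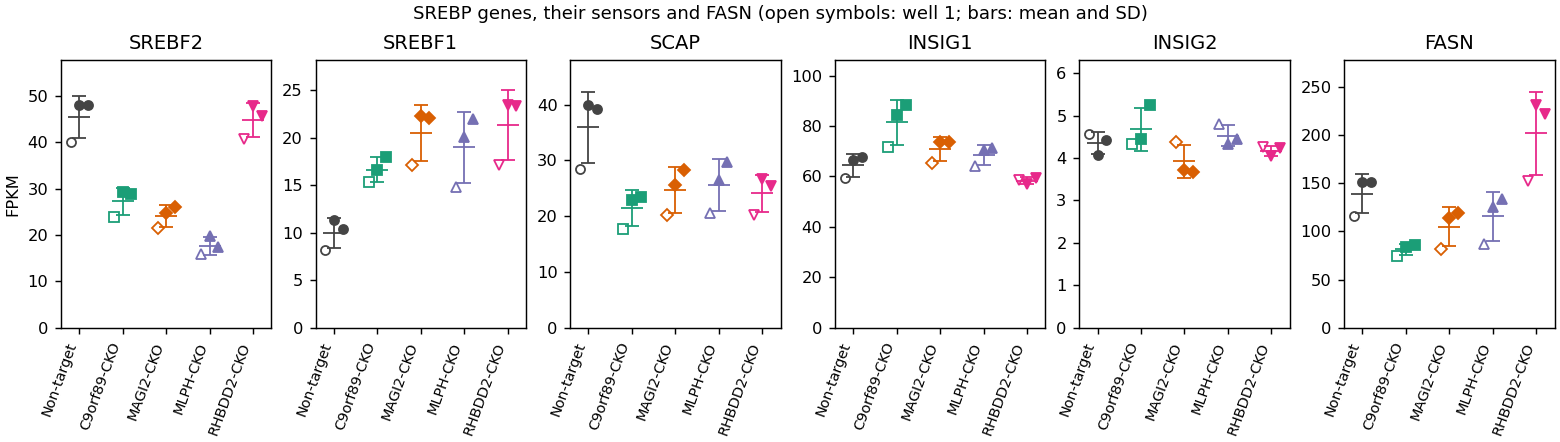
FPKM (vertical axes from 0) of SREBF2, SREBF1, SCAP, INSIG1, INSIG2 and FASN in each well, with open symbols for well 1 and bars for mean and SD of 3 wells. SREBF2 is lower in 3 of the 4 clones, SREBF1 is higher in all 4, and well 1 is the lowest of its group for SREBF2, SREBF1, SCAP and FASN.

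Of the 4 genes of fatty acid synthesis, 1 was called lower and none higher in each of the first 3 clones, and 2 were called higher and none lower in RHBDD2-CKO, counts too small to be set apart from the shares of all tested genes given above. Their mean log2 ratio to Non-target was −0.19 ± 0.04, −0.17 ± 0.08 and −0.14 ± 0.09 in the first 3 clones and 0.30 ± 0.09 in RHBDD2-CKO (SD over 3 wells). FASN, which builds palmitate, had 116, 151 and 151 in Non-target, 74.9, 83.5 and 86.1 in C9orf89-CKO, 81.4, 114 and 119 in MAGI2-CKO, 86.98, 126 and 134 in MLPH-CKO and 152, 231 and 222 in RHBDD2-CKO, in FPKM, and is given by well after its values were seen. Its C9orf89-CKO wells were below every Non-target well and its RHBDD2-CKO wells above. It fell by 0.76 on the log2 scale in C9orf89-CKO (SE 0.20, adjusted p = 0.0143, limma), a call lost after quantile normalization and without Non-target well 2 (adjusted p = 0.0541, limma) or well 3 (adjusted p = 0.0548, limma). The value in RHBDD2-CKO was 0.52 (adjusted p = 0.0649, limma) and passed in 8 of the other settings, with 0.58 and an adjusted p of 0.000102 (limma) without the libraries numbered 1. In MAGI2-CKO and MLPH-CKO the values were −0.42 and −0.28, neither called, but both passed without the libraries numbered 1 (adjusted p = 0.00065 and 0.00872, limma). With a block for replicate number, FASN was called lower in MAGI2-CKO and MLPH-CKO and higher in RHBDD2-CKO, as given in the last paragraph.

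ACACA, which supplies malonyl-CoA, had 11.9, 9.64 and 10.7 in Non-target, 9.87, 9.48 and 9.04 in C9orf89-CKO, 8.31, 8.31 and 7.86 in MAGI2-CKO, 8.66, 9.20 and 9.03 in MLPH-CKO and 13.3, 13.3 and 13.5 in RHBDD2-CKO, in FPKM, chosen likewise. It rose by 0.32 in RHBDD2-CKO and fell by 0.39 in MAGI2-CKO and by 0.25 in MLPH-CKO on the log2 scale (adjusted p = 0.00353, 0.000773 and 0.0146, limma). ACLY, which makes cytosolic acetyl-CoA, rose in RHBDD2-CKO by 0.31 (adjusted p = 0.00248, limma) and was not called at 0.15, 0.13 and 0.11 in the others, while its 100 neighbours had medians of 0.41, 0.40, 0.45 and 0.24, the last 0.08 over the 20 nearest. SCD, the desaturase, had 189 to 226 FPKM and was called in no clone (0.03, 0, −0.14 and 0.06).

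Of the transport genes, STARD4, a cytosolic sterol carrier, had 6.46, 5.31 and 6.30 in Non-target, 4.65, 4.42 and 4.83 in C9orf89-CKO, 3.91, 3.77 and 3.59 in MAGI2-CKO, 5.05, 4.80 and 5.32 in MLPH-CKO and 5.52, 5.18 and 5.88 in RHBDD2-CKO, in FPKM. C9orf89-CKO and MAGI2-CKO lay below every Non-target well and MLPH-CKO touched the range. The log2 fold changes were −0.37, −0.66, −0.24 and −0.12, and the first 3 were called (adjusted p = 0.00524, 4.22e-05 and 0.0386, limma), the third of them lost in 9 of 26 other settings. NPC1, which moves cholesterol out of lysosomes, was called in RHBDD2-CKO alone, at −0.38 (adjusted p = 0.0153, limma), where its neighbours had a median of −0.36 (−0.24 over the 20 nearest), and had −0.26, −0.21 and −0.07 in the others.

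The calls in RHBDD2-CKO depended on the scaling. On the TPM scale, the median of all tested genes moved by 0.152 in this clone, and 8 members were called, 6 higher and 2 lower, in place of 4 higher and 9 lower. This scale multiplies all genes of a library by the same factor, so the new split is no change of the members relative to other genes. After quantile normalization 6 members were higher and 6 lower. The median of the 18 enzymes was −0.16 as deposited, −0.05 after quantile normalization and −0.01 on the TPM scale. NSDHL (−0.77, adjusted p = 6.56e-05, limma) and CYP51A1 (−0.46, adjusted p = 0.0115, limma) were the members still lower on the TPM scale. In the other 3 clones the enzyme medians on that scale were −0.41, −0.96 and −0.70, with 11, 15 and 15 called lower and none higher.

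The clones were also compared directly. RHBDD2-CKO had more enzyme RNA than the other 3 clones. Against C9orf89-CKO, 16 members were higher and 2 lower, beside 14.3% and 15% of all tested genes. Against MAGI2-CKO, 19 were higher and 2 lower, beside 21.5% and 20%, and against MLPH-CKO 17 were higher and 1 lower, beside 18.7% and 18.4%. Of the 18 enzymes, 12, 14 and 12 were higher, with medians of 0.37, 0.78 and 0.58. MSMO1 differed by 0.83, 1.47 and 1.72 on the log2 scale (adjusted p = 8.81e-06, 3.56e-08 and 1.14e-08, limma), and SREBF2 by 0.72, 0.89 and 1.34 (adjusted p = 0.000397, 4.13e-05 and 1.89e-06, limma). FASN differed by 1.28, 0.94 and 0.80 (adjusted p = 0.000393, 0.00239 and 0.00737, limma). SREBF1 was called in none of the 3.

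Among the other 3 clones, the median of the 18 enzymes was nearest to 0 in C9orf89-CKO (−0.47), while SCAP (−0.74) and FASN (−0.76) had their most negative values there. MAGI2-CKO had 13 members lower than C9orf89-CKO and none higher, beside 12.7% and 9.76% of all tested genes, with SC5D (−1.71), HMGCS1 (−0.71), HSD17B7 (−0.71) and ACAT2 (−0.65) at the head. MLPH-CKO had 9 lower and none higher, beside 7.61% and 6.63%, led by MSMO1 (−0.89), SREBF2 (−0.62) and DHCR7 (−0.61). Without the libraries numbered 1, SREBF1 and FASN were called higher in MAGI2-CKO, and these and SCAP in MLPH-CKO, so that none higher became 2 and 3. Between MLPH-CKO and MAGI2-CKO, 6 members were higher in MLPH-CKO and 3 lower, beside 11.8% and 9.4%, or 5 and 1 on the TPM scale. SC5D (1.32), ACAT2 (0.52) and HSD17B7 (0.48) were higher in MLPH-CKO, and SREBF2 was lower (−0.45, adjusted p = 0.0133, limma). MVD, FDPS and NSDHL were called in none of these 3 contrasts.

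A further 48 genes of neighbouring pathways were read in the same fit. Of these, 6, 16, 12 and 9 were lower (12.5%, 33.3%, 25% and 18.8%), beside 13.1%, 19.1%, 15.5% and 16.7% of all tested genes. Higher were 9, 6, 7 and 9 (18.8%, 12.5%, 14.6% and 18.8%), beside 12.9%, 17%, 14.5% and 17.4%. Both shares in RHBDD2-CKO and the lower share in C9orf89-CKO thus lay close to those of all genes. The higher share in C9orf89-CKO was 18.8% against 12.9%. The lists below are too short for their counts to be set apart from the shares of all genes. Among 12 other lipogenic genes, FADS2, a fatty acid desaturase, had 6.10 to 7.71 FPKM in Non-target and rose in all 4 clones by 0.85, 0.45, 1.29 and 0.90 on the log2 scale (adjusted p = 1.85e-05, 0.00144, 4.37e-07 and 7.73e-06, limma). ELOVL6, a fatty acid elongase, fell in MAGI2-CKO and MLPH-CKO (−0.40 and −0.61) and rose in RHBDD2-CKO (0.56, adjusted p = 0.000429, limma). AACS, which activates acetoacetate, fell in the last 3 clones (−0.59, −0.50 and −0.51), and FADS1, another desaturase, rose in C9orf89-CKO (0.54).

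Of 10 genes for SREBP processing and turnover, 0, 3, 2 and 0 were lower and 3, 2, 1 and 1 higher. Among those that rose was ERLIN1, a membrane protein that takes part in sterol-regulated protein turnover, in the first 3 clones (0.31, 0.30 and 0.25), named after its values were seen. TMEM97, a sterol-binding membrane protein, fell in MAGI2-CKO and MLPH-CKO (−0.41 and −0.61), PAQR3, a Golgi anchor, fell in MLPH-CKO (−0.62), and C12orf49, needed for SREBP cleavage, fell in MAGI2-CKO (−0.49). Of 6 genes for LXR, the receptor for oxysterols, and its targets, MYLIP, a ubiquitin ligase for lipoprotein receptors, fell in the first 3 clones (−0.38, −0.25 and −0.26) and rose in RHBDD2-CKO (0.85, adjusted p = 6.46e-06, limma), ABCG1, a sterol exporter, rose in MLPH-CKO (0.65), LPCAT3 fell in MAGI2-CKO (−0.46) and NR1H2, an LXR itself, fell in RHBDD2-CKO (−0.31).

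Of 10 genes for sterol transport and storage, SCARB1, a receptor for high-density lipoprotein, fell in all 4 clones (−0.54, −0.53, −0.59 and −0.47, adjusted p from 0.00217 to 0.00805, limma). VLDLR, a lipoprotein receptor, fell in C9orf89-CKO, MAGI2-CKO and RHBDD2-CKO (−0.58, −0.58 and −0.60), STARD3NL fell in MAGI2-CKO (−0.76) and GRAMD1B, which carries sterol from the plasma membrane, rose in C9orf89-CKO and RHBDD2-CKO (0.40 and 0.47). Of 10 genes in the branches that use isoprenoids, DHDDS, which makes dolichol precursors, rose in all 4 clones (0.73, 0.49, 0.31 and 0.53, adjusted p from 2.17e-05 to 0.00792, limma). COQ2, which attaches the isoprenoid tail of ubiquinone, fell in C9orf89-CKO, MLPH-CKO and RHBDD2-CKO (−0.37, −0.73 and −0.48), PDSS1 fell in RHBDD2-CKO (−0.57) and FNTA in MAGI2-CKO (−0.38).

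With 3 wells against 3, an exact two-sided permutation test of a single gene cannot give a p below 0.1, and the adjusted p-values above rest on the spread that limma shared across all genes and all 15 libraries.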

How the data were processed

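RNA from 3 wells of each of 5 HEK293T lines was sequenced as an mRNA library. The authors deposited 1 FPKM table per library, whose unit is not named and was worked out here: each value times the merged exon length of GENCODE v29 (GRCh38), divided by what 1 fragment is worth in that library (estimated from its low values), was a whole number of fragments within 0.05 for the values checked, those below 5000 fragments. The submitters' processing notes name HISAT2 2.0.5, featureCounts 1.5.0-p3 and DESeq2. The genome build is not given in the sources used here. Symbols were matched through GENCODE v29.

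A gene entered the test when 3 or more libraries reached 0.5 FPKM. The test was limma 3.58.1 under R 4.3.3, run on log2(FPKM + 0.1), with 1 model with 5 groups and 15 libraries, eBayes with trend, and Benjamini-Hochberg adjustment in each of 10 contrasts. In a test on simulated data for C9orf89-CKO against Non-target (16175 genes), 90 of 100 genes with 2-fold and 44 of 100 with 1.5-fold changes were recovered, with 4 false calls. The simulated dispersion was 0.01, the wells shared no differences and all other genes were unchanged. In the real contrast 4210 genes were called, so the recovery need not hold for these data. Neighbours are the 100 nearest tested genes on a chromosome. Motifs were searched in RefSeq promoters (GRCh38.p14). Depth was 15517856 to 19489918 fragments per library.

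The members and lists were chosen with earlier results of these data known. Values in every well are given for members called the same way in at least 3 clones, the 3 with the largest change in each clone, the SREBP genes and their sensors. Of each related list up to 4 called genes are named. The alternatives were no filter, a mean of at least 1 FPKM, pseudocounts of 1 and 0.01, quantile normalization, FPKM rescaled to the same sum per library (TPM scale), no trend, only the 6 libraries of a contrast, a replicate block, voom weights on recovered fragments and each library left out. Leaving out the libraries numbered 1 and a call rule of at least 1.5-fold were added after seeing the data. Python 3.11.15 with pandas 2.3.3 and numpy 2.4.6 did the remaining work. Some genes of the neighbouring pathways and a marker gene are counted in their lists but not reported here by name.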

Additional observations from a re-analysis of the deposited data

Results flagged for a closer look

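Among the members, in 3 cases a gene was called higher in 1 clone and lower in another against Non-target, and the clones also differed by their own contrast (limma, Benjamini-Hochberg adjusted). TM7SF2, a sterol reductase, was at 0.41 in RHBDD2-CKO and −0.65 in MAGI2-CKO against Non-target on the log2 scale, a difference of 1.06 (adjusted p = 2.14e-06). ACACA, the acetyl-CoA carboxylase, was at 0.32 in RHBDD2-CKO and −0.39 in MAGI2-CKO, a difference of 0.71 (adjusted p = 4.71e-06), and at −0.25 in MLPH-CKO, a difference from RHBDD2-CKO of 0.57 (adjusted p = 3.77e-05). In each case all 3 wells of RHBDD2-CKO lay above every well of the other clone.

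The same held for 2 named genes of the neighbouring pathways and 2 markers of HEK293T cells. ELOVL6, a fatty acid elongase, differed between RHBDD2-CKO and MAGI2-CKO by 0.96 (adjusted p = 2.82e-06) and between RHBDD2-CKO and MLPH-CKO by 1.16 (adjusted p = 7.45e-07). MYLIP, a ubiquitin ligase, was higher in RHBDD2-CKO than in C9orf89-CKO by 1.23, than in MLPH-CKO by 1.11 and than in MAGI2-CKO by 1.09 (adjusted p from 2.39e-07 to 4.87e-07). KRT8, a keratin, was higher in MLPH-CKO than in C9orf89-CKO by 2.50 and than in MAGI2-CKO by 2.02 (adjusted p = 1.53e-08 and 3.63e-08). NEFL, a neurofilament gene, was lower in RHBDD2-CKO than in MLPH-CKO by 5.01, than in MAGI2-CKO by 4.52 and than in C9orf89-CKO by 4.48 (adjusted p from 1.3e-12 to 9.29e-12).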

How the results depend on the processing

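Of 10380 log2 fold changes of named genes recomputed under an alternative, 9825 kept their side of the threshold, 414 lost the call and 141 gained one. None that was called in either fit changed direction. A change of sign without a call in either fit was counted as kept. In 26 refits, which leave out the 1.5-fold rule given next, 6 of 13 members called in RHBDD2-CKO, 12 of 18 in C9orf89-CKO, 15 of 18 in MLPH-CKO and 19 of 22 in MAGI2-CKO were called in every one. The members called moved to 11 in C9orf89-CKO and 3 in RHBDD2-CKO when a change of at least 1.5-fold was required, to 8 in RHBDD2-CKO on the TPM scale, and to 14 for MLPH-CKO against C9orf89-CKO without the libraries numbered 1 (chosen after seeing the data). The cause was not tested.

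With each library left out in turn, the members called ranged from 16 to 20, 19 to 22, 17 to 19 and 8 to 14 against Non-target, in the order of the report, the lowest of these, 8, without Non-target replicate 2. They ranged from 9 to 13 for MAGI2-CKO and 6 to 10 for MLPH-CKO against C9orf89-CKO, 6 to 9 for MLPH-CKO against MAGI2-CKO, and 12 to 18, 19 to 22 and 15 to 20 for RHBDD2-CKO against C9orf89-CKO, MAGI2-CKO and MLPH-CKO. All genes called ranged from 3288 to 4365, 4750 to 5965, 3875 to 5023 and 4271 to 5640.

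Calls lost without 1 library are given with the highest adjusted p (limma). In C9orf89-CKO they were CYP51A1 (0.0828, without C9orf89-CKO well 2 or Non-target well 1 or 3), FASN (0.0548, Non-target well 2 or 3) and INSIG1 (0.0555, C9orf89-CKO well 3). In MAGI2-CKO they were EBP (0.0928) and SCAP (0.14), each without MAGI2-CKO well 1 or 2 or Non-target well 2 or 3, and LSS (0.0757, MAGI2-CKO well 1 or Non-target well 2 or 3). In MLPH-CKO they were ACACA (0.0553, Non-target well 1) and STARD4 (0.134, MAGI2-CKO well 2, MLPH-CKO well 1 or 2, or Non-target well 1 or 3). In RHBDD2-CKO they were FDPS (0.0529, Non-target well 2), HSD17B7 (0.145, RHBDD2-CKO well 2 or 3 or Non-target well 2 or 3), MVD (0.0926, RHBDD2-CKO well 1 or Non-target well 2 or 3), NPC1 (0.058, RHBDD2-CKO well 1 or Non-target well 3), SCAP (0.109, RHBDD2-CKO well 1 or 3 or Non-target well 2 or 3) and ACAT2 (0.189, any of 11 libraries).

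Deviations from the group mean correlated with a median r of 0.0856 between libraries of the same number (12 of 30 pairs above 0.1, lowest 0.00103, highest 0.312). Between libraries of different numbers the median was −0.0887 (2 of 60 above 0.1), and 12 of 15 libraries correlated best with their own number. Every pair of the same number thus had a positive r, a sign of small differences shared between wells. The labels give no shared day or batch, and the main fit did not take the numbers as pairs. Calls that depend on this are those that move with the replicate block. With the replicate block 16 members were called in RHBDD2-CKO (5 higher, 11 lower), 20 in C9orf89-CKO (3 higher, 17 lower), 22 in MLPH-CKO and 24 in MAGI2-CKO. FASN was then called lower in MAGI2-CKO (adjusted p = 0.00125, limma) and MLPH-CKO (adjusted p = 0.0144, limma) and higher in RHBDD2-CKO (adjusted p = 0.000332, limma). Against C9orf89-CKO, the block gave 3 members higher and 16 lower in MAGI2-CKO, and 2 higher and 11 lower in MLPH-CKO. The shares of all tested genes called with the block are not given here. A rise over all genes therefore cannot be told apart from one in the members. Calls near the threshold limit what 3 wells can show. The simulation, in which 44 of 100 1.5-fold changes were recovered, had another setting than these data and does not measure this limit.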
